A study of Mus musculus with 6 samples.

Results

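The 2′-5′-oligoadenylate synthetase (OAS) family was followed across 6 one-colour expression arrays through its members Oas1a, Oas2, Oas3, Oasl1 and Oasl2. They were taken by gene symbol, each had 1 probe set carrying that single symbol, and they were 5 of 18193 genes that a probe set named alone. B16-F1 cells, which derive from a melanoma of C57BL/6J mice, carried a short hairpin RNA (shRNA) stably delivered by lentivirus. The control line expressed a hairpin against GFP, the macroH2A1 line one against mH2A1 and the macroH2A2 line one against mH2A2, and each line had 2 biological replicates. All 6 arrays therefore came from cells with a lentiviral hairpin, and none came from cells without one. How many hairpins or clones stand behind a line is not stated in the labels. MacroH2A1 and macroH2A2 are histone H2A variants with a large additional macro domain, and the comparisons asked how transcript levels differ once either is targeted.

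OAS proteins are induced by interferon and sense double-stranded RNA. On binding it, the active synthetases join ATP into oligoadenylates with 2′-5′ linkages, and these small molecules act as a signal that leads to the decay of viral and cellular RNA. Not all family members are enzymes: mouse Oasl1 lacks synthetase activity, while mouse Oasl2 retains it and carries ubiquitin-like domains. Interferon reaches these genes through the receptor, JAK kinases and a transcription factor complex that contains IRF9, which binds the interferon-stimulated response element in their promoters.

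The promoters are shown first because interferon signalling acts on its target genes through promoter elements. The 250 bases before the annotated start were read from RefSeq (build GRCm38.p6, all on chromosome 5) for 4 of the 5 members, and Oas2 had no entry. Oas1g, a close paralog of Oas1a, is given beside it. Capitals mark the core of an interferon-stimulated response element, searched on both strands as GAAANNGAA. The Oas1a window lies at chr5:120907526-120907775 (minus strand), Oas1g at chr5:120887614-120887863 (minus strand), Oas3 at chr5:120777660-120777909 (minus strand) and Oasl2 at chr5:114896684-114896933 (plus strand).
Oas1a: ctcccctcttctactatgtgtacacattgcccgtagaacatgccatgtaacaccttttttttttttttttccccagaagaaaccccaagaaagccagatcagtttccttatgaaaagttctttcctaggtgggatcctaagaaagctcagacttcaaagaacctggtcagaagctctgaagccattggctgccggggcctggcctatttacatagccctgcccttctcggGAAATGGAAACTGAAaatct
Oas1g: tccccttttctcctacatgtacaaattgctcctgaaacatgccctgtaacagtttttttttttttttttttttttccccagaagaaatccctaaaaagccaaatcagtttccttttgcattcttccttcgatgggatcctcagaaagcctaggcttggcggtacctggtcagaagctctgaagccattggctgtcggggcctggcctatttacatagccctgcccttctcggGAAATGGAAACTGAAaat
Oas3: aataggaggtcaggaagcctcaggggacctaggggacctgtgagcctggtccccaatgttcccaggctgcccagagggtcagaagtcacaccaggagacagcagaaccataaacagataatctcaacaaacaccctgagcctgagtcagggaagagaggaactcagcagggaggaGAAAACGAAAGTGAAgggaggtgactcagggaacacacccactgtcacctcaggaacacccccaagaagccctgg
Oasl2: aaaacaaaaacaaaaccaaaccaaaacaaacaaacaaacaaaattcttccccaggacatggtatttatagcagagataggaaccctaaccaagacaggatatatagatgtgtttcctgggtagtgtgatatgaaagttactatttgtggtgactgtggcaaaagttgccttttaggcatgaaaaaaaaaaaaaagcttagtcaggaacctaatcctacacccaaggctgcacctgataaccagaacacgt

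Oas1a held 2 overlapping cores, which spanned bases 20 to 6 before the start. Oas1g held the same pair at bases 18 to 4, and the 250 bases of both genes were identical in 82.8% of 256 aligned columns. Oas3 also held 2 overlapping cores, at bases 75 to 61 before the start. Oasl2 and Oasl1 held none in this window. A core was found in 7.15% of 32544 promoters of the same length, and a variant with a shorter spacer (GAAANGAAA) in 2.69% of them and in none of these OAS promoters. A gamma-activated site (TTCNNNGAA, the same on both strands) was present in 7.04% of all promoters and, within this family, in Oas1a at bases 98 to 90 before the start. A match describes letters only, and binding was not measured.

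**Figure D1:**
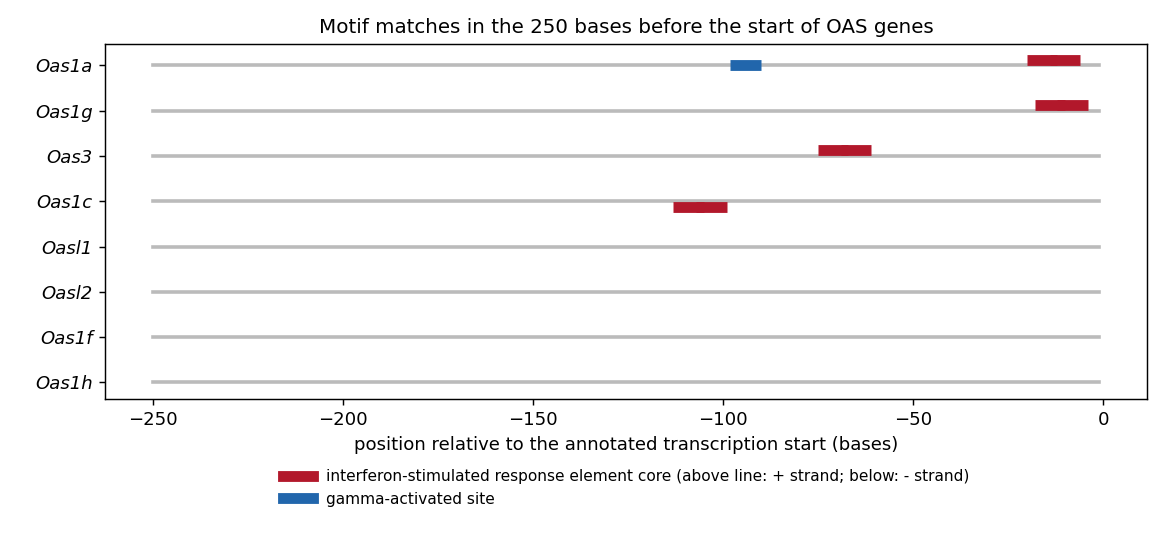
Positions of motif matches in the 250 bases before the annotated start (0 at the right, in bases) of 8 OAS genes; red bars are overlapping pairs of interferon-stimulated response element cores and the blue bar is a gamma-activated site. Oas1a, Oas1g, Oas3 and Oas1c hold 2 cores each, and Oasl1, Oasl2, Oas1f and Oas1h hold none.

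The deposited signals are linear intensities with a trimmed mean of 150.0 on each array, and 2 arrays a line limit the precision of every value. Median signals lay between 15.1 on control replicate 2 and 24.6 on control replicate 1. Any 2 arrays had a Pearson's r of 0.978 to 0.990 on the log2(signal + 16) scale over all probe sets. Differences between replicates 1 and 2 were shared in part by the lines (r from 0.372 to 0.576 over probe sets), so values from a fit with replicate number as a block are given where they alter a call. The median log2 difference from the control over all tested probe sets depended on the control array kept. With no block, it was 0.038 (macroH2A1 line) and 0.031 (macroH2A2 line) when only control replicate 2 was kept. It was -0.097 and -0.101 when only control replicate 1 was. How far this difference between the control arrays enters the values of dim genes below was not tested. In the macroH2A1 line the targeted Macroh2a1 read 444.2 and 319.1 against 1212.7 and 1262.4 in the control. Macroh2a2 read 6.1 and 7.5 on the control arrays, 3.5 and 2.0 on the macroH2A1 arrays and 11.9 and 8.3 on the macroH2A2 arrays. It was thus highest on the arrays labelled macroH2A2 shRNA, opposite to the label. Its mean lay below the signal filter of 10.4 units, and in a limma fit without the filter the log2 difference from the control was 0.19 (SE 0.16, 95% interval -0.19 to 0.57). The arrays therefore do not bear out the macroH2A2 label, and the macroH2A2 line means throughout the samples so labelled. Melanocyte markers were present as the cell type implies: all 10 on the arrays read between 508.0 and 9998.0. Markers of other cell types were dim. The 10 leukocyte markers on the arrays summed to 143.4 and 107.1 on the control arrays, 128.2 and 92.9 on the macroH2A1 arrays and 94.0 and 104.3 on the macroH2A2 arrays, and the 7 fibroblast markers to 185.0 and 120.4, 145.7 and 111.9, and 119.3 and 108.7. The 2 fibroblast markers that passed the filter went apart, neither past the threshold in either fit: Pdgfra read 82.9 and 52.4, 32.5 and 24.4, and 25.6 and 25.2, lower without overlap in both lines, and Col1a2 read 52.8 and 46.1, 79.8 and 68.3, and 63.0 and 62.1, higher without overlap. Endothelial markers (6) summed to between 30.6 and 45.8 per array and keratinocyte markers (4) to at most 36.5. No marker was at exactly 0, and the part of such sums in the results below was not tested.

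Oas1a, an active synthetase, was lower in both macroH2A lines than in the control line. It read 539.0 and 513.0 on the control arrays, 139.0 and 181.9 on the macroH2A1 arrays and 242.9 and 243.1 on the macroH2A2 arrays. The 3 lines did not overlap: the control arrays were highest, the macroH2A2 arrays lay between and the macroH2A1 arrays were lowest. Mean signals were 526.0 ± 18.4, 160.5 ± 30.3 and 243.0 ± 0.141 (SD, n = 2 arrays each), which is 3.28-fold lower in the macroH2A1 line and 2.16-fold lower in the macroH2A2 line. In such bulk samples fewer cells that express a gene and less RNA per cell cannot be told apart.

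On the log2(signal + 16) scale used for all tests, which understates the change of dim probe sets, Oas1a differed by -1.63 (SE 0.17, 95% interval -2.03 to -1.23) in the macroH2A1 line. The difference was -1.84 within replicate set 1 and -1.42 within set 2. In limma fitted to all 27025 tested probe sets, it ranked 3 by p. Its Benjamini-Hochberg adjusted limma p was 0.123, and 0.00282 once the block was added, so it passed the threshold of 0.05 with the block only. Of 9 forms of the blocked fit, 8 kept this call, and the exception was the one without the signal filter (adjusted limma p 0.0807). In the macroH2A2 line Oas1a differed by -1.06 (SE 0.17, 95% interval -1.46 to -0.67), with -1.10 in set 1 and -1.03 in set 2, and ranked 13. The adjusted limma p was 0.565, and 0.0332 once the block was added. For this call, 5 of the 9 forms of the blocked fit kept it, and the adjusted limma p was 0.336 when control shRNA replicate 1 was left out, 0.0544 when control shRNA replicate 2 was, 0.0887 after quantile normalization and 0.269 without the filter. Both comparisons share the 2 control arrays. An exact permutation test of 2 against 2 arrays cannot give a two-sided p below 0.333, so the calls rest on the spread that limma borrows across probe sets.

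**Figure D2:**
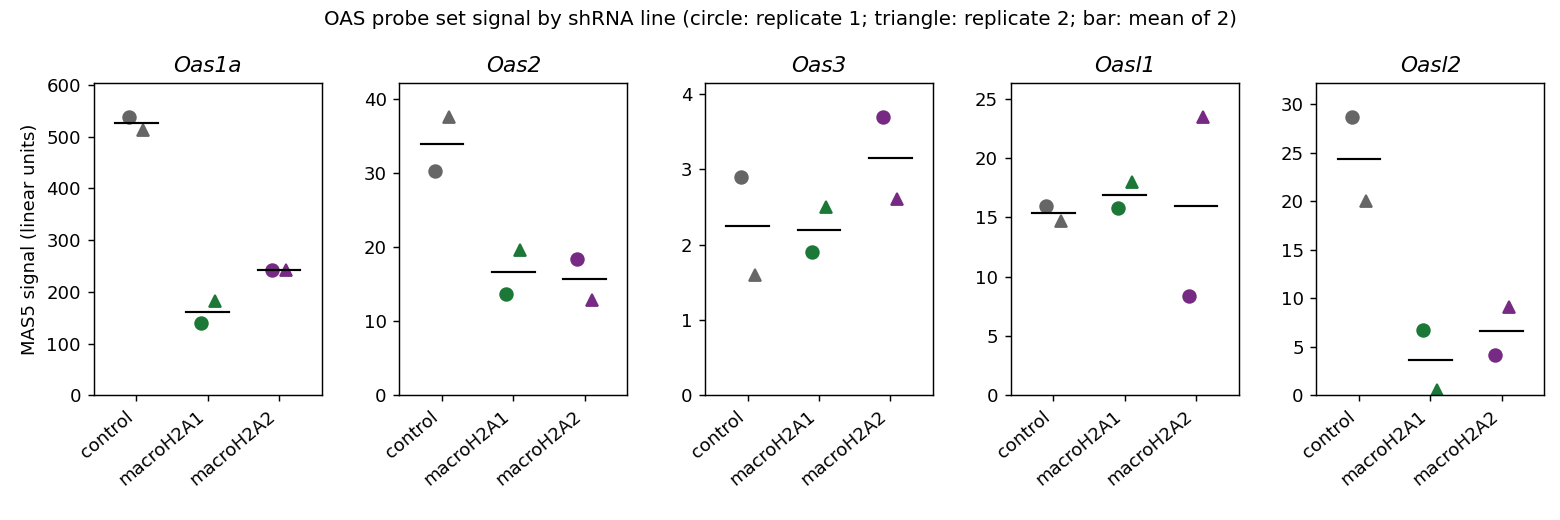
MAS5 signal (linear units, axis from 0 and scaled per gene) of the 5 OAS probe sets in the control, macroH2A1 shRNA and macroH2A2 shRNA lines, with replicate 1 as circles, replicate 2 as triangles and the mean of 2 as a bar. Oas1a, Oas2 and Oasl2 are higher on both control arrays than on all 4 macroH2A shRNA arrays, whereas Oas3 and Oasl1 are not.

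Oas2, a synthetase with a duplicated OAS unit, read 30.2 and 37.6 on the control arrays, 13.6 and 19.6 on the macroH2A1 arrays and 18.4 and 12.9 on the macroH2A2 arrays. Both control arrays were higher than the other 4, and the macroH2A lines overlapped each other. The log2 difference was -0.62 (SE 0.25) in the macroH2A1 line, with -0.64 and -0.59 in sets 1 and 2. It was -0.66 (SE 0.25) in the macroH2A2 line, with -0.43 and -0.89. Neither passed the threshold: the adjusted limma p was 1 in both comparisons, and 0.407 and 0.361 once the block was added.

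Oasl2, the synthetase-active mouse OAS-like protein, read 28.7 and 20.0 on the control arrays, 6.7 and 0.5 on the macroH2A1 arrays and 4.1 and 9.1 on the macroH2A2 arrays. Again both control arrays lay above the other 4, and the macroH2A lines overlapped. Its mean of 11.5 units over the 6 arrays passed the filter of 10.4 only through the control arrays, since all 4 macroH2A arrays read below it. Its tests are therefore given as a description with no weight as support. The log2 difference was -1.05 (SE 0.29) in the macroH2A1 line, with -0.98 and -1.13 within sets, and -0.84 (SE 0.29) in the macroH2A2 line, with -1.15 and -0.52. The adjusted limma p values were 0.880 and 1, and they were 0.173 and 0.300 once the block was added. The blocked fit called Oasl2 in the macroH2A1 line when macroH2A2 shRNA replicate 1 or 2 was left out (adjusted limma p 0.0213 and 0.0243), and in the macroH2A2 line without macroH2A2 shRNA replicate 2 (0.0459). Its size depended on the constant added to the signal: it was -2.88 and -1.80 with a pseudocount of 1, and -0.39 and -0.32 with 64. At these low signals the size is therefore uncertain.

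Oasl1, which in mouse restrains the translation of Irf7 mRNA, showed no common direction. It read 16.0 and 14.7 on the control arrays, 15.8 and 18.0 on the macroH2A1 arrays and 8.4 and 23.5 on the macroH2A2 arrays. The macroH2A2 arrays held both the lowest and the highest value, and all groups overlapped. The log2 differences were 0.07 (SE 0.29, 95% interval -0.60 to 0.74) and -0.01 (SE 0.29, 95% interval -0.69 to 0.66), with adjusted limma p values of 1 in both comparisons. These intervals still hold differences of up to about the size of the Oas2 estimates in either direction, so they do not show that Oasl1 was the same. The sign turned in 2 of 21 alternatives for the macroH2A1 line and in 8 of 21 for the macroH2A2 line.

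Oas3, whose human counterpart prefers long double-stranded RNA, was dimmest. It read 2.9 and 1.6 on the control arrays, 1.9 and 2.5 on the macroH2A1 arrays and 3.7 and 2.6 on the macroH2A2 arrays. Its mean over the arrays, 2.53 units, lay below the filter of 10.4 units, so it was not tested with the others. In a limma fit without the filter the log2 differences from the control were -0.0032 (SE 0.11) and 0.07 (SE 0.11), and its groups overlapped the control in both. A difference in Oas3 was not detectable at this signal.

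Counted over the family, 4 of 5 members passed the filter, Oasl2 only through its control arrays, so the counts and medians below describe the members that passed and nothing more. Of these 4, 3 had macroH2A1 arrays that all lay below the control arrays, and 3 had macroH2A2 arrays that all did. They were Oas1a, Oas2 and Oasl2 in both. Over all tested probe sets 14.9% and 16.2% were lower without overlap, and 55.6% and 55.7% were lower in all. The median log2 difference of the 4 members was -0.83 in the macroH2A1 line (-0.81 and -0.86 in sets 1 and 2) and -0.75 in the macroH2A2 line (-0.76 and -0.71), beside -0.03 and -0.03 over all tested probe sets. Without the block limma called 0 of the 4 in either comparison, as it called 0% of all probe sets. At an unadjusted limma p under 0.05 there were 3 of 4 members in each comparison (Oas1a, Oas2 and Oasl2), and 1189 and 1075 of all 27025 tested probe sets. Oasl2 carries no weight as support in this count. With the block it called 1 of the 4, Oas1a, in both comparisons, where 0.192% and 0.144% of all probe sets were called.

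The comparison of the macroH2A2 with the macroH2A1 line asked whether the lines differ from each other. Oas1a was higher in the macroH2A2 line, at 1.51 times the mean signal, and was the 1 member of 4 whose groups of arrays did not overlap in that direction, which held for 13.3% of all probe sets. The log2 difference was 0.56 (SE 0.17, 95% interval 0.17 to 0.96), with 0.74 in set 1 and 0.39 in set 2. The unadjusted limma p was 0.0112, and the adjusted limma p was 1, or 0.518 once the block was added, so the difference did not pass the threshold. Oas2 differed by -0.04 (95% interval -0.61 to 0.53), Oasl2 by 0.21 (-0.46 to 0.89) and Oasl1 by -0.08 (-0.76 to 0.59). These intervals do not show that the lines are alike. Limma called 0% of all probe sets in this comparison without the block, and 0.0037% with it, and 0 of the 4 members in either fit.

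**Figure D3:**
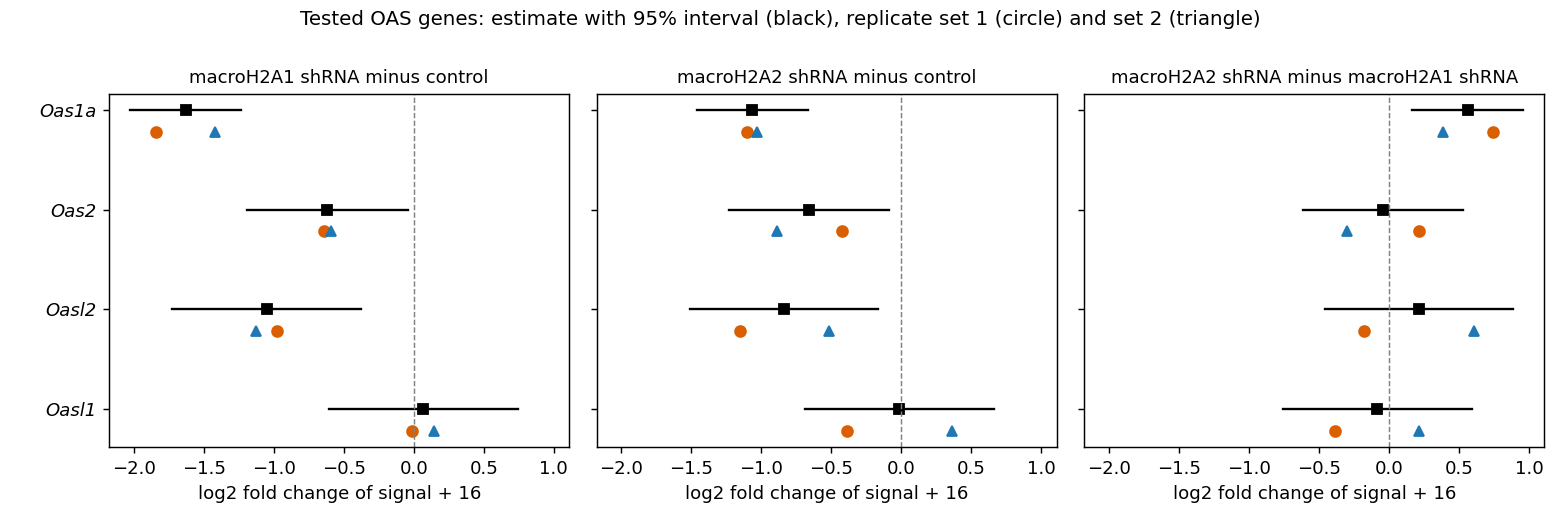
Differences in log2(signal + 16) between lines for the 4 tested OAS genes, with the limma estimate (square) and its 95% interval without the block (line), and the difference within replicate set 1 (circle) and set 2 (triangle). Oas1a, Oas2 and Oasl2 lie below 0 in both comparisons with the control in each replicate set, and Oasl1 lies on both sides of 0.

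The further genes of the pathway that were tested gave no call. RNase L, the ribonuclease of this pathway, was not among the genes with a value here. Of 10 further OAS pathway genes listed, 7 were on the arrays and 4 were tested, and limma called 0 of the 4 in each comparison with or without the block. Their median log2 difference was -0.13 in the macroH2A1 line and -0.25 in the macroH2A2 line. Oas1b, which the C57BL/6J reference annotates as a transcribed pseudogene, read 55.7 and 17.4 on the control arrays, 18.2 and 5.6 on the macroH2A1 arrays and 20.1 and 3.6 on the macroH2A2 arrays. Replicate 1 was higher than replicate 2 in every line, so the groups overlapped, yet within sets 1 and 2 the differences were -1.07 and -0.63, and -0.99 and -0.77. Oas1c read 58.8 and 35.6 on the control arrays, 36.2 and 37.7 on the macroH2A1 arrays and 26.2 and 23.2 on the macroH2A2 arrays. Its arrays were lower without overlap in the macroH2A2 line (-0.61, SE 0.25), with an adjusted limma p of 1.

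Pde12 and Abce1 overlapped the control in both lines. Pde12, a phosphodiesterase that degrades the oligoadenylates, read 244.5 and 297.9 on the control arrays, 246.5 and 279.3 on the macroH2A1 arrays and 298.4 and 283.6 on the macroH2A2 arrays (log2 differences -0.04 and 0.10, SE 0.17). Abce1, a ribosome recycling factor, read 648.9 and 856.9, 726.4 and 932.9, and 818.3 and 906.0 (0.14 and 0.20, SE 0.18). Neither passed the threshold, which does not show that they were the same. Oas1e, Oas1f and Oas1h were below the filter, at between 0.4 and 19.4 units on all arrays. No probe set named Oas1g or Oas1d alone was used here, and whether the Oas1a probe set also measured Oas1g was not tested.

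Genes upstream of the family were examined by step, and not every gene of the list is named. The receptor genes Ifnar1 (log2 differences 0.14 and -0.08, SE 0.16) and Ifnar2 (-0.06 and -0.19, SE 0.18) and the kinase gene Jak1 (-0.02 and -0.06, SE 0.15) overlapped the control in both lines. The kinase gene Jak2 did not: it read 298.5 and 261.1 on the control arrays, 238.1 and 204.6 on the macroH2A1 arrays and 230.3 and 246.8 on the macroH2A2 arrays. Its log2 differences were -0.32 and -0.21 (SE 0.17), and neither passed the threshold in either fit. The kinase gene Tyk2 overlapped the control in both lines. Its signals were 183.1 and 154.7 (control), 139.2 and 183.2 (macroH2A1) and 151.4 and 204.7 (macroH2A2). Irf9, the DNA-binding subunit of the interferon complex, read 214.2 and 161.4 on the control arrays, 100.6 and 117.5 on the macroH2A1 arrays and 120.5 and 129.1 on the macroH2A2 arrays. Irf7, the factor that amplifies type I interferon production, read 83.6 and 39.5, 23.0 and 18.9, and 35.1 and 22.6. For both factors the control arrays lay above all others. The log2 differences of Irf9 were -0.70 (SE 0.20) and -0.52 (SE 0.20), and those of Irf7 were -1.01 (SE 0.32) and -0.74 (SE 0.32), and none passed the threshold in either fit. Usp18, the ISG15 protease that also restrains receptor signalling, read 428.7 and 256.3, 64.5 and 108.7, and 110.7 and 144.4. Its log2 difference was -1.80 (SE 0.30) in the macroH2A1 line and -1.29 (SE 0.30) in the macroH2A2 line, with adjusted limma p values of 0.423 and 0.791, or 0.0272 and 0.109 with the block.

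Over the signalling list, 17 of 20 genes were tested, 14 were lower in each macroH2A line, 6 of them without overlap in each, and the medians were -0.14 and -0.11. Over all tested probe sets 55.6% and 55.7% were lower, and 14.9% and 16.2% were so without overlap. Set 1 and set 2 differed here, at -0.31 and 0.02 in the macroH2A1 line and -0.35 and 0 in the macroH2A2 line. Limma called 0 of 17 without the block in either comparison. With it, 1 was called in the macroH2A1 line (Usp18) and 0 in the macroH2A2 line, where 0.192% and 0.144% of all probe sets were called.

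Other genes of the response to double-stranded RNA were examined next. Ifih1, which encodes the sensor MDA5, read 245.5 and 256.3 on the control arrays, 117.5 and 166.5 on the macroH2A1 arrays and 134.7 and 156.7 on the macroH2A2 arrays (log2 differences -0.77 and -0.73, SE 0.20). Ddx58, which encodes RIG-I, read 331.2 and 342.6, 213.4 and 236.2, and 266.4 and 304.2 (-0.55 and -0.23, SE 0.16). Ifit1, which binds RNA with unmodified caps, read 167.2 and 157.9, 48.0 and 83.5, and 43.7 and 64.8 (-1.16 and -1.36, SE 0.27). In these genes every control array was above every macroH2A array, and with the block Ifit1 passed in the macroH2A2 line (adjusted limma p 0.0306, against 0.0539 in the macroH2A1 line). Eif2ak2, which encodes the kinase PKR, overlapped (-0.40 and -0.47, SE 0.33). Of 12 tested genes of this list, 11 and 10 were lower, 7 and 7 without overlap, with medians of -0.46 and -0.37, beside 55.6% and 55.7% lower and 14.9% and 16.2% lower without overlap among all probe sets. Limma called 0 of 12 without the block in either comparison, and 0 and 1 with it, against 0.192% and 0.144% of all probe sets.

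Interferon-induced effectors outside the RNA-sensing group had medians of -0.67 and -0.70, with 14 of 15 tested genes lower in each line, 13 and 12 of them without overlap, beside the same shares of all probe sets (14.9% and 16.2% without overlap). Of these, Mx2 (means of 28.7, 9.3 and 6.85 units in the control, macroH2A1 and macroH2A2 lines) and, in the macroH2A2 line, Sp100 (44.25, 12.25 and 8.5) lay below the filter where they were low and passed it through the control arrays, so the counts and medians describe the tested genes only. Rtp4, an interferon-induced transporter chaperone, read 789.9 and 815.7 on the control arrays, 238.0 and 422.6 on the macroH2A1 arrays and 289.7 and 318.2 on the macroH2A2 arrays (-1.29 and -1.36, SE 0.24). Xaf1, a proapoptotic interferon-induced factor, read 550.4 and 422.8, 175.6 and 222.3, and 167.2 and 221.4 (-1.22 and -1.26, SE 0.21). Limma called 0 of 15 without the block in either comparison. With it, 3 were called in the macroH2A1 line (Rtp4, Xaf1 and Ifitm3, with adjusted limma p values of 0.0244, 0.0378 and 0.0459). In the macroH2A2 line 2 were called with the block (Rtp4 and Xaf1, adjusted limma p 0.0242 and 0.0339). Of all probe sets, 0.192% and 0.144% were called with the block in these comparisons. All 7 calls of list genes with the block were lost without control shRNA replicate 1, with adjusted limma p values of 0.106 or more, after quantile normalization, with 0.0610 or more, and without the filter, with 0.255 or more. Those of Xaf1, Rtp4 and Ifitm3 in the macroH2A1 line were also lost without macroH2A1 shRNA replicate 1. Melanocyte markers had medians of 0.24 and 0.09 over 10 genes, with 0 calls in either fit. Of the 10, 7 were higher without overlap in the macroH2A1 line and 3 in the macroH2A2 line. Lower without overlap were 1 and 2, Tyr among them in both, beside 14.9% and 16.2% of all probe sets. The share of all probe sets higher without overlap was not computed for these comparisons, so the counts of higher markers are a description only.

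**Figure D4:**
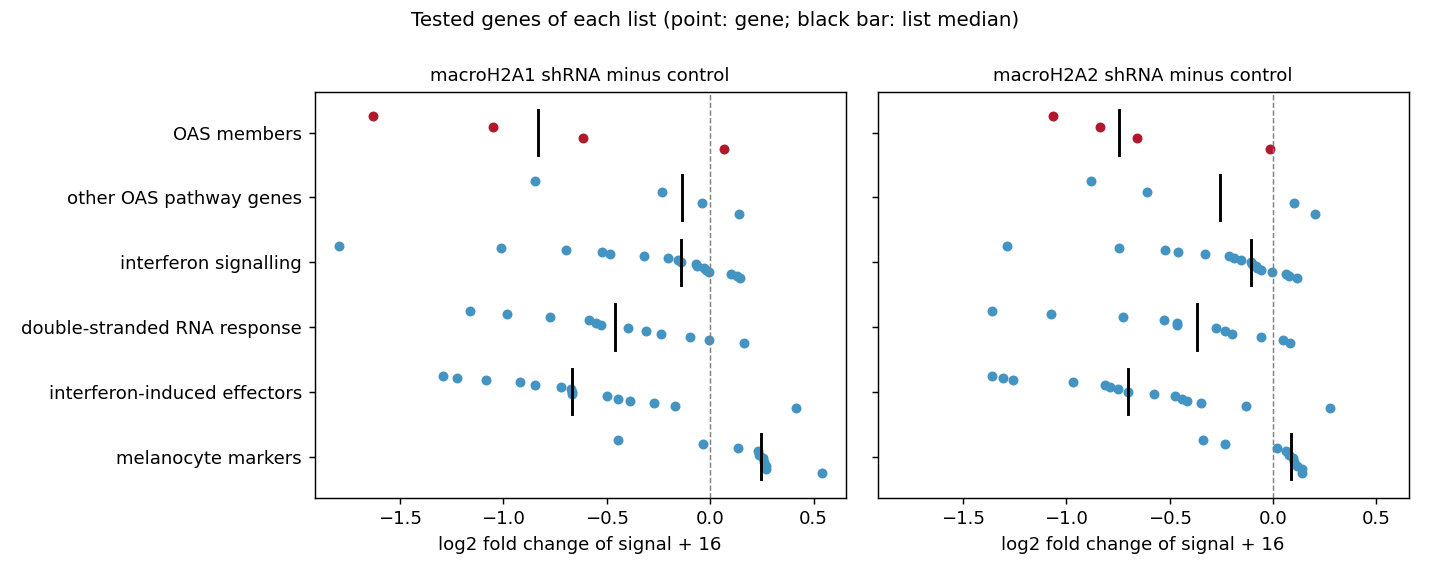
Differences in log2(signal + 16) from the control line for the tested OAS members (red) and the tested genes of 5 further lists (blue), with the list median as a black bar. The medians of the OAS members, -0.83 and -0.75, lie below 0, those of the melanocyte markers, 0.24 and 0.09, above it.

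Interferon-stimulated response element cores of either spacing were present in 6 of 11 genes of the RNA-sensing list with a promoter entry, in 6 of 15 effectors and in 4 of 18 signalling genes. They were present in 9.38% of all promoters and in 0 of 22 genes of the 5 marker lists. The share is over distinct promoter sequences, whereas a list gene counted if any of its entries held a core, so the units differ. Within the OAS family, Oas1a had 2 cores and read lower in both lines. Oas1c also had 2. It overlapped the control in the macroH2A1 line and was lower without overlap in the macroH2A2 line, without passing the threshold. Oasl2 read lower with no core in its window, Oasl1 had none and no common direction, and Oas3 had 2 and a signal too dim to test.

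The genes whose level over the 6 arrays was most like the mean of the 4 tested members were Ermp1, Fstl1, Cxcl2, Hddc3 and Gbp7, with Pearson's r between 0.980 and 0.988. This likeness is a description over 6 arrays that fall into 3 lines, and all of these share the same 2 control arrays. Among the members, Oas1a, Oasl2, Oas2 and Oasl1 had r of 0.92, 0.91, 0.80 and 0.25 with their own mean. Each member is part of that mean, which raises its r, so these values do not measure how far the family varies together. Oasl2, which passed the filter only through its control arrays, is part of the mean as well. Gbp7, an interferon-induced GTPase, read 234.0 and 227.8 on the control arrays, 104.0 and 142.5 on the macroH2A1 arrays and 102.8 and 152.2 on the macroH2A2 arrays. Cxcl2, a neutrophil chemokine, read 94.8 and 66.1, 10.1 and 7.6, and 5.9 and 23.8. Fstl1, a secreted glycoprotein, read 317.2 and 257.4, 127.6 and 137.5, and 128.0 and 172.2. In all 5 genes both control arrays were above the other 4, a pattern that their selection by likeness to the members already favoured.

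**Figure D5:**
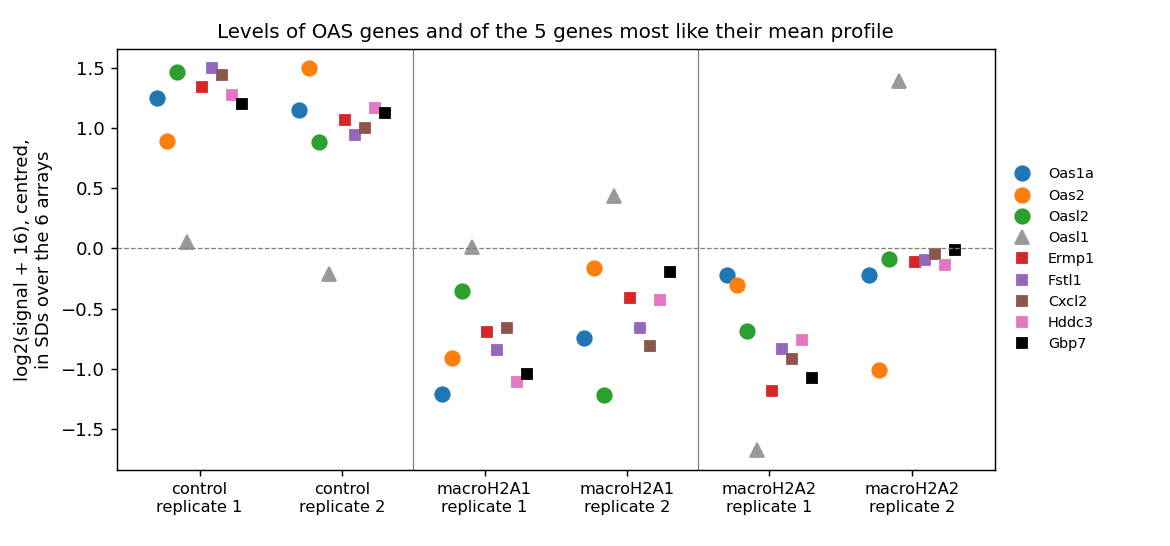
Level of the 4 tested OAS genes (circles, and a triangle for Oasl1) and of the 5 genes most like their mean (squares) on each of the 6 arrays, as log2(signal + 16) centred and divided by its SD over the arrays. All but Oasl1 are highest on the 2 control arrays, and Oasl1 has its lowest and highest values in the macroH2A2 line.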

How the data were processed

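RNA from 6 samples was measured on one-colour Affymetrix arrays. The authors deposited 1 linear signal intensity for each probe set, computed with MAS5 per the submitters' processing notes, which name no version. The trimmed mean, leaving out 2% at each end, was 150.0 on every array, so changes in total signal cannot be seen. Of 45101 probe sets, 64 controls were left out, and 34945 had 1 gene symbol. Groups and replicate numbers came from the labels. Signals were analysed as log2(signal + 16). Probe sets with a mean at or above the 40th percentile (10.4 units) were tested, 27025 in all, in 1 fit of 3 group means with limma 3.58.1 (R 4.3.3, lmFit and eBayes with a trend, 3 residual and 4.90 prior degrees of freedom), with Benjamini-Hochberg adjustment. P-values rest on the spread between 2 biological replicates a line, pooled over the 3 lines and moderated across probe sets. Whether that spread includes differences between hairpins or clones is not stated in the labels.

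The labels do not say what a replicate number marks, so the use of it as a block rests on these data alone. Replicate 1 minus replicate 2 differences correlated between lines with r of 0.576, 0.372 and 0.415, on signals without quantile normalization. Replicate 1 also had the higher median signal in each line (24.6 and 15.1, 20.6 and 15.4, 19.5 and 16.2). Whether the numbers mark paired cultures or only a shared difference in array intensity was not tested. With the replicate number as a block the fit has 2 residual and 9.09 prior degrees of freedom.

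The members, the gene lists and the motifs were chosen with earlier results of these data known. Named were all members, list genes past the threshold with or without the block or among the 4 smallest p of a list, and the 5 genes most like the members. Some of these are given by their counts. Ifnar2, Jak1, Tyk2, Eif2ak2, Mx2 and the marker genes fall outside that rule and were named after their values were seen. Where several probe sets named a list gene, the brightest stood for it. Alternatives changed the pseudocount, filter, scaling, variance trend, block and arrays.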

Additional observations from a re-analysis of the deposited data

How the results depend on the processing

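Without the block, limma called 0 of the tested OAS probe sets in all 3 comparisons under every alternative run, leave-one-out fits included. The 60th percentile filter kept Oas1a alone. The replicate block gave 1 call (Oas1a) in each comparison with the control and 0 between the macroH2A lines. With the block and quantile normalization the count in the macroH2A1 line was 1, and with the block and 1 array left out it ranged from 1 to 2, but without the filter it was 0. In the macroH2A2 line these blocked counts ranged from 0 to 2, and the cause was not tested.

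The median log2 difference of the tested members stayed below 0 in both comparisons with the control. In the macroH2A1 line it was -1.36 with a pseudocount of 1, -0.33 with 64, -0.62 without the filter (5 members, with or without the replicate block), -1.63 with the 60th percentile filter (1 member), -0.76 after quantile normalization (with or without the block) and -0.78 once each array was centred on its median. With 1 array left out it ranged from -0.88 to -0.79, with the block or without. In the macroH2A2 line the same alternatives gave -1.09, -0.31, -0.66, -1.06, -0.67 and -0.68, and with 1 array left out it ranged from -0.77 to -0.72, or -0.76 to -0.69 with the block, where it was -0.70 without macroH2A2 shRNA replicate 2. Between the macroH2A lines the median was 0.56 with the 60th percentile filter and up to 0.37 in the ranges below.

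Signs turned only for values that passed no threshold. For Oasl1 in the macroH2A2 line the value was 0.0045 with a pseudocount of 64, 0.065 after quantile normalization, with the block or without, and 0.056 with arrays centred. With 1 array left out it ranged from -0.36 to 0.33, and from -0.35 to 0.32 with the block, where it was 0.21 without control shRNA replicate 1. For Oasl1 in the macroH2A1 line the range with the block and 1 array left out was -0.16 to 0.30, with -0.041 without macroH2A1 shRNA replicate 1. Between the macroH2A lines, with 1 array left out, Oasl1 ranged from -0.43 to 0.26 (-0.42 to 0.26 with the block), Oas2 from -0.18 to 0.091 (-0.29 to 0.20) and Oasl2 from -0.015 to 0.44 (-0.14 to 0.57), and the median of the members from 0.038 to 0.32 (0.033 to 0.37). Also between these lines, with the block, Oasl1 was 0.028 without macroH2A1 shRNA replicate 1, and Oas2 was 0.10 and Oasl2 -0.017 without macroH2A1 shRNA replicate 2. The replicate block changed no other call of a member than those given. Signals near 10 units limit Oasl2, Oasl1 and Oas3.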

Other observations

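In the reference gene order the family forms 2 groups on chromosome 5. Oasl2 and Oasl1 neighbour each other, and Oas2, Oas3 and the Oas1 genes form a second run that ends with Oas1a and Oas1d. The flanking genes were chosen by position after the members' values were seen, and they carry no test here. 2210016L21Rik, next to Oasl1, read 113.0 and 117.3 on the control arrays, 131.7 and 139.9 on the macroH2A1 arrays and 123.8 and 138.2 on the macroH2A2 arrays, so its control arrays were lowest. Dtx1, next to Oas2, read 22.8 and 21.5, 10.1 and 15.0, and 27.2 and 16.7, lower than the control in the macroH2A1 line and overlapping it in the macroH2A2 line. Rph3a, next to Oas1d, read 25.2 and 17.8, 17.3 and 9.7, and 18.2 and 15.2.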
